A study of Mus musculus with 30 samples.

Results

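The 10 genes described here, Syt9, Myf6, Serpina1a, Serpina1e, Lce1d, Lce1e, Klk11, Klk1b5, Pbsn and Tex46, are known for work in tissues other than blood, and were chosen because their group means in mouse blood leukocytes after cyclophosphamide followed the same course as those of Alas2. They were picked by gene symbol from a set of 105 features whose mean log2 ratio fell by at least 1 at day 2 against untreated and rose by at least 1.5 from day 2 to day 5, of 13027 features in all and 6515 tested. Of the 105 features, 73 have a gene symbol and the 10 genes are 10 of these. The day 2 against untreated and day 5 against day 2 values therefore chose the genes and are given as a description, with no test.

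The series followed leukocytes of the circulating blood of DBA/2 mice in 4 groups of independently harvested samples: untreated (4 samples), day 1 (4), day 2 (4) and day 5 (3). The days count from an intraperitoneal dose of 83 mg per kg cyclophosphamide, an alkylating drug that is toxic to dividing cells. Every sample was measured in 2 technical replicates on 2-colour arrays, with leukocyte RNA in Cy5 and a reference pool of bone marrow cells of the same strain in Cy3. A value is the log ratio of blood over marrow. Its base is not stated and was taken as 2, so that each unit is a doubling. The medians of the columns lay near 0, so 0 is close to the level of the median probe and is not an absolute marrow level. The labels call the pool untreated in one field and name the drug in another, and a pool that is the same on every array drops out of differences between groups. The labels do not say whether a sample comes from 1 mouse or several.

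Synaptotagmins such as Syt9 are calcium sensors of vesicle release in neurons and endocrine cells. Myf6 is a transcription factor of the skeletal muscle lineage. Serpina1a and Serpina1e encode forms of alpha-1-antitrypsin, the serine protease inhibitor that the liver secretes into plasma, and mice carry several near-identical copies. Lce1d and Lce1e encode late cornified envelope proteins of the outer epidermis. Klk11 and Klk1b5 encode secreted serine proteases of the kallikrein family, Pbsn encodes probasin, an androgen-dependent protein of the rodent prostate, and Tex46 is named as a testis expressed gene. Alas2 encodes the erythroid form of 5-aminolevulinate synthase, the first enzyme of heme synthesis, and is a marker of red cell precursors and young red cells.

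Each gene was read by 1 probe, and all 10 had a value in each of the 15 samples and passed the filter on missing values. Values were present in 30 of 30 technical columns for 9 genes and in 29 for Serpina1a. The near-identical copies Serpina1b and Serpina1c had a value in 1 sample each and Serpina1d in none, so how far the probes of Serpina1a and Serpina1e share signal with them, or with each other, was not tested. Columns of the table held values for 5314 to 9398 of 13443 probes, and their medians lay between -0.0028 and 0.025. Day 1 replicate 3 and day 2 replicate 1 had the fewest values, 6633 and 5751 probes in either technical column, and both stand apart in the results below. The leukocyte identity of the samples could be checked only in part: Cd4, Csf3r, Nkg7 and S100a9 were tested, while Ptprc, the pan-leukocyte antigen CD45, had values in 5 samples and Cd3e in none.

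The sequence upstream of the transcription start is shown for the Serpina1 and Lce1 pairs, whose windows aligned over most of their length, and for Alas2, so that the likeness within a pair can be seen beside their levels. The RefSeq promoter table, build GRCm38.p6, held 9 of the 10 genes, all but Myf6. Each line gives the 250 bases before the start, 5′ to 3′ on the strand of the gene, and capitals mark GATAA or its reverse complement TTATC, the core letters that GATA factors of the erythroid lineage bind. Serpina1a lies at chr12:103863620-103863869 and Serpina1e at chr12:103956898-103957147, Lce1d at chr3:92687211-92687460 and Lce1e at chr3:92709075-92709324, all on the minus strand, and Alas2 at chrX:150547167-150547416 on the plus strand.
Serpina1a: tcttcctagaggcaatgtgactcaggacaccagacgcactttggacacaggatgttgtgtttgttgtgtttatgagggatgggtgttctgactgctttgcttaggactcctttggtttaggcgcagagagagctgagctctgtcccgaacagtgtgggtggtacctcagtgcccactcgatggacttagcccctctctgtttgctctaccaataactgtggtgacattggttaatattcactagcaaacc
Serpina1e: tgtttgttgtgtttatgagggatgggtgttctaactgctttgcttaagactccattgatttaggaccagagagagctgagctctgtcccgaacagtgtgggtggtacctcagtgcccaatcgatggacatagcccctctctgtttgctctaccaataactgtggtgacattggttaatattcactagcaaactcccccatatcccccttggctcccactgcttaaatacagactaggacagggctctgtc
Lce1d: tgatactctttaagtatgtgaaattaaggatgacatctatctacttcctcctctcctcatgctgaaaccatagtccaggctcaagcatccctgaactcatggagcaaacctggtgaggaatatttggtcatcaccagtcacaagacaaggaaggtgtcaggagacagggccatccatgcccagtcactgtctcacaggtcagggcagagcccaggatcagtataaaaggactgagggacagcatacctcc
Lce1e: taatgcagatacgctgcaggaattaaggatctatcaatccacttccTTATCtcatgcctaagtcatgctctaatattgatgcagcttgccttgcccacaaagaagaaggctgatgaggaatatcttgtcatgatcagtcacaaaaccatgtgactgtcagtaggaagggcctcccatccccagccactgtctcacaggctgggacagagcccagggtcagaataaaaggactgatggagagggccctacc
Alas2: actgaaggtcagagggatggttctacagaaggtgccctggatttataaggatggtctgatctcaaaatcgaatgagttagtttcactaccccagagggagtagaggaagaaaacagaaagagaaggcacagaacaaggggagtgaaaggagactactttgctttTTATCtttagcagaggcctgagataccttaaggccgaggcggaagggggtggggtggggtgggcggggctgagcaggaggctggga
The windows of Serpina1a and Serpina1e were identical at 95.9% of 243 aligned columns and those of Lce1d and Lce1e at 72.2% of 273. For the kallikreins, a single window of Klk11, which has more than 1, was set against Klk1b5 and aligned over 9 columns only. Over windows of 300 bases, which add the first 50 transcribed bases, GATAA on either strand was found in Alas2 and in 1 of the 9 genes, Lce1e, against 25.4% of all 32851 windows. CACCC, searched with its reverse complement GGGTG, was found in 7 of the 9 (either window of Klk11 counted), against 57.5% of all windows, and in Alas2. TATAAA or TTTATA was found in Lce1d, Pbsn and Alas2, against 13.6% of all windows. CCAAT or ATTGG was found in Serpina1a, Serpina1e, Klk11 and Pbsn, against 37.4%. The GC content of the windows ran from 43.3% in Pbsn to 79.3% in Syt9, around a median of 52.7% over all windows.

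All 10 genes kept one order of group means, highest at day 5, then untreated, then day 1, and lowest at day 2, an order that 101 of the 105 features of the larger set share. Syt9, the synaptotagmin, had log2 ratios of 0.46, 0.46, 0.87 and 1.04 in untreated samples, -0.99, -1.01, 0.42 and -0.32 at day 1, -1.64, -2.13, -2.32 and -2.54 at day 2, and 1.61, 1.41 and 1.05 at day 5. The 4 groups did not overlap, and the day 1 values spread more widely than those of any other group, with replicate 3 near the untreated level. Its means were 0.71 ± 0.29 in untreated samples, -0.48 ± 0.68 at day 1, -2.16 ± 0.39 at day 2 (SD, n = 4 each) and 1.36 ± 0.28 at day 5 (SD, n = 3). Day 2 blood thus held Syt9 at 0.137 of the untreated ratio, the third largest fall of all 6515 tested features, one rank above Alas2.

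Myf6, the muscle factor, had log2 ratios of 0.35, 0.46, 0.83 and 0.85 in untreated samples, -1.21, -1.09, 0.25 and -0.47 at day 1, -1.51, -2.21, -2.34 and -2.00 at day 2, and 1.19, 1.17 and 0.79 at day 5. Only untreated and day 5 samples overlapped, and replicate 3 was again the highest at day 1. The day 2 mean was -2.64 ± 0.27 below untreated (log2 difference ± SE of the fit), or 0.161 of the untreated ratio.

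The alpha-1-antitrypsin genes followed. Serpina1a had log2 ratios of 0.22, 0.38, 0.75 and 0.68 in untreated samples, -1.13, -1.14, 0.06 and -0.49 at day 1, -1.38, -2.55, -2.32 and -2.23 at day 2, and 1.39, 0.31 and 0.71 at day 5. Serpina1e had 0.19, 0.37, 0.66 and 0.72 in untreated samples, -0.83, -0.85, 0.17 and -0.34 at day 1, -0.99, -1.62, -1.37 and -1.49 at day 2, and 1.11, 1.06 and 0.52 at day 5. In both genes day 2 replicate 1 was the highest day 2 sample, while the second day 5 sample was the lowest of that group in Serpina1a only. The day 2 change was -2.63 ± 0.30 for Serpina1a and -1.85 ± 0.22 for Serpina1e (SE), the ratios at day 2 being 0.161 and 0.277 of the untreated ones; the difference between the genes was not tested.

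Among the epidermal genes, Lce1d had log2 ratios of -0.14, 0.02, 0.37 and 0.47 in untreated samples, -1.25, -1.40, -0.31 and -0.80 at day 1, -1.46, -2.47, -2.41 and -2.04 at day 2, and 0.89, 0.30 and 0.39 at day 5. Lce1e had -0.13, 0.32, 0.72 and 0.45 in untreated samples, -0.62, -0.63, 0.01 and -0.37 at day 1, -0.54, -1.28, -1.21 and -1.11 at day 2, and 0.90, 0.98 and 0.23 at day 5. Lce1e is the one gene of the 10 whose day 1 and untreated samples overlapped, since untreated replicate 1 lay below day 1 replicate 3. Lce1d changed by -2.28 ± 0.26 at day 2 and Lce1e by -1.37 ± 0.22 (log2 difference ± SE). They are neighbours on chromosome 3.

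The kallikreins, probasin and Tex46 completed the range. Klk1b5 had log2 ratios of -0.06, 0.18, 0.28 and 0.50 in untreated samples, -1.16, -1.27, -0.16 and -0.66 at day 1, -1.62, -1.95, -2.32 and -2.01 at day 2, and 0.98, 0.70 and 0.39 at day 5. Klk11 had -0.14, -0.06, 0.18 and 0.42 in untreated samples, -1.17, -0.89, -0.35 and -0.56 at day 1, -0.99, -1.89, -1.97 and -1.97 at day 2, and 0.98, 0.26 and 0.37 at day 5. In Klk11 day 2 replicate 1 stood at a day 1 level, well above the other day 2 samples. The day 2 changes were -2.20 ± 0.22 for Klk1b5 and -1.81 ± 0.24 for Klk11 (log2 difference ± SE).

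Pbsn, the prostate gene, ran from -0.19 to 0.57 in untreated samples, -1.23 to -0.21 at day 1, -1.76 to -1.27 at day 2 and 0.30 to 0.85 at day 5, a day 2 change of -1.63 ± 0.22 (SE). Tex46 had log2 ratios of 0.23, 0.45, 0.41 and 0.38 in untreated samples, -0.37, -0.35, -0.05 and 0.06 at day 1, -0.84, -0.31, -0.98 and -0.66 at day 2, and 1.26, 1.10 and 0.77 at day 5. Its day 5 samples lay above all others, its day 2 replicate 2 overlapped the day 1 samples, and its day 2 change was the smallest of the 10, -1.07 ± 0.15 (SE), or 0.478 of the untreated ratio. The threshold of the choice ran close to it: Flt1 (-1.13 at day 2, 1.51 from day 2 to day 5) lay just inside, and H2ap (-1.03, 1.49) and Gpa33 (-1.10, 1.48) just outside.

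Alas2 had log2 ratios of -0.47, -0.30, 0.39 and 0.77 in untreated samples, -1.73, -1.60, -0.73 and -1.15 at day 1, -1.33, -3.24, -3.05 and -3.30 at day 2, and 0.64, 0.49 and 1.39 at day 5. It shared the order of group means, but day 2 replicate 1 lay among the day 1 samples. Its change at day 2 was -2.83 ± 0.40 (log2 difference ± SE), between those of Syt9 and Myf6. From day 2 to day 5 the 10 genes changed by 1.74 in Lce1e to 3.51 in Syt9, and Alas2 by 3.57. Every day 2 sample lay below every untreated sample in all 10 genes, which 10.2% of tested features did, and every day 5 sample above every day 2 sample, which 14.4% did; both counts follow from the choice of the genes.

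**Figure D1:**
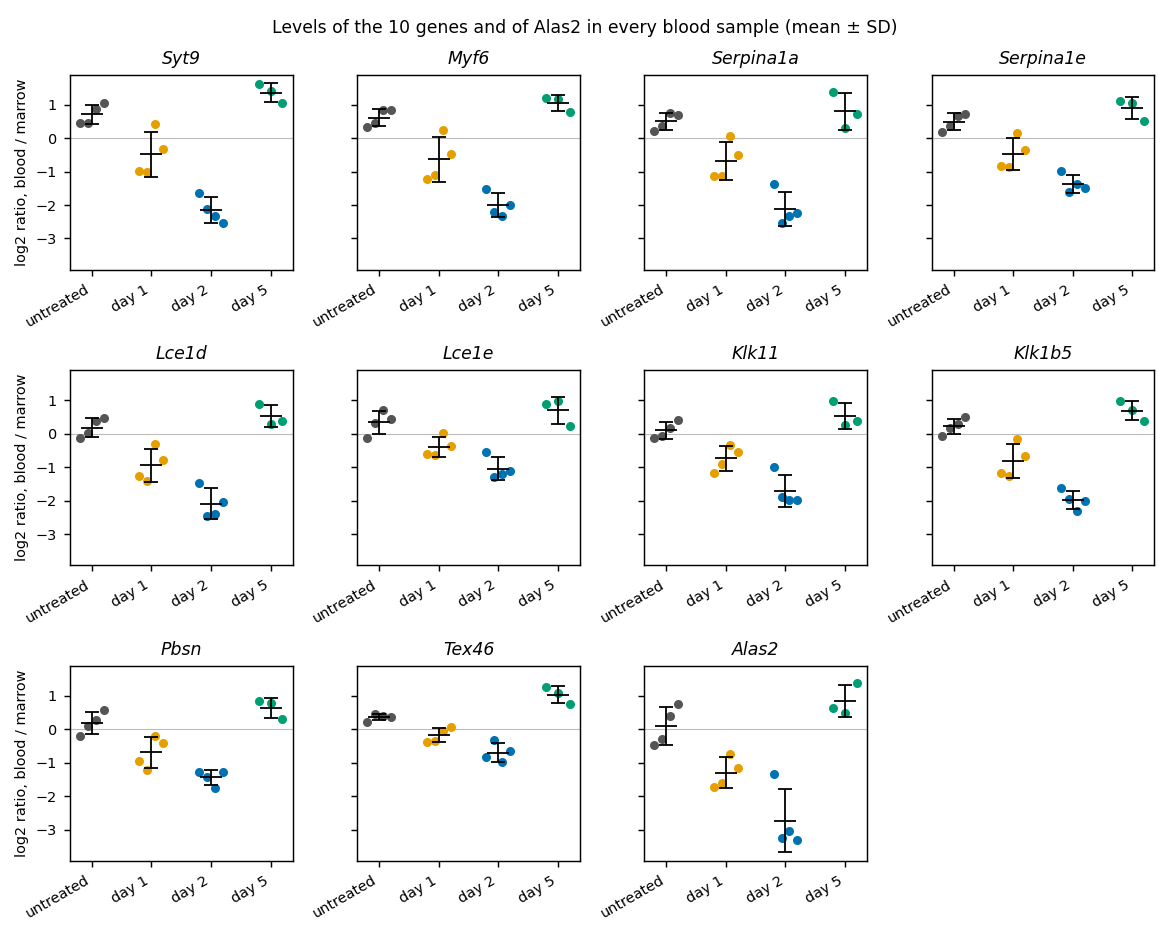
Log2 ratio of blood leukocytes over bone marrow for each of the 10 genes and Alas2, by group. Points are samples (4 untreated, 4 at day 1, 4 at day 2, 3 at day 5), horizontal bars are means and error bars are SD. Every gene is lowest at day 2 and highest at day 5, and day 1 replicate 3, the third day 1 point, is the highest of its group in 9 of the 10 genes.

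At day 1 the fall was under way. The day 1 samples do not enter the thresholds of the choice, but the genes were picked with earlier results of these data known. All 10 genes had negative changes at day 1 against untreated, from -1.25 in Myf6 to -0.55 in Tex46, with a median of -0.99 against 0.03 over all tested features. The comparison shares its untreated samples with the choice, so the calls below add no independent support. By limma with Benjamini-Hochberg adjustment over 6515 features, 7 of the 10 were lower at day 1, against a background of 2.32% of features called lower. Myf6 fell by 1.25 ± 0.27 (SE, limma adjusted p = 0.020), Klk1b5 by 1.03 ± 0.22 (adjusted p = 0.021), Lce1d by 1.12 ± 0.26 (adjusted p = 0.025) and Serpina1e by 0.95 ± 0.22 (adjusted p = 0.029). Syt9, Pbsn and Serpina1a were called lower as well (adjusted p = 0.032, 0.036 and 0.037). Tex46 (-0.55, adjusted p = 0.054), Klk11 (-0.84, adjusted p = 0.055), Lce1e (-0.74, adjusted p = 0.065) and Alas2 (-1.40, adjusted p = 0.058) did not pass. In 9 of the 10 genes every day 1 sample lay below every untreated one, which 7.71% of all tested features did.

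The size of these changes was steadier than the calls. Leaving out untreated replicate 3 or 4, or day 1 replicate 1, 2 or 4, left 0 of the 10 genes called at day 1, in fits that called 22 to 25 of the 6515 features lower, against 151 with all samples. Without day 1 replicate 3, 9 of the 10 were called, with a median change of -1.21. Over all such omissions the median change lay between -1.21 and -0.85. The day 1 change made up 41.3% (Syt9) to 54.3% (Pbsn) of the day 2 change, with a median of 48.3%, and 49.5% in Alas2.

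At day 2 against day 1 the differences of the 10 genes were all negative, with a median of -1.06. In limma 5 were called lower, against 0.614% of all tested features. They were Syt9, with a change of -1.68 (adjusted p = 0.021), Klk1b5 with -1.16 (0.028), Myf6 with -1.39 (0.029), Serpina1a with -1.44 (0.037) and Lce1d with -1.15 (0.042, all adjusted p by limma). In 7 genes, all but Lce1e, Klk11 and Tex46, every day 2 sample lay below every day 1 sample, which 4.82% of all tested features did. Day 2 samples also enter the choice of the genes, so the 5 calls add no independent support. The count fell to 0 without day 1 replicate 4 or day 2 replicate 2, and to 1 without day 1 replicate 3 or day 2 replicate 4. It fell to 3 without untreated replicate 3 or day 2 replicate 3. With all samples, 40 of the 6515 features were called lower. That number was 0 without day 1 replicate 4, 1 without day 2 replicate 2 and 3 without day 1 replicate 3. It was 15 without day 2 replicate 4, 14 without untreated replicate 3 and 34 without day 2 replicate 3. Alas2 had a difference of -1.43 that did not pass (adjusted p = 0.12).

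By day 5 the genes were back at or above the untreated level. The changes against untreated were all positive, from 0.30 in Serpina1a to 0.67 in Tex46, with a median of 0.43 against 0.00 over all tested features, and limma called 0 of the 10, against 0.261% of features called higher. Of all tested features, 1134 had an unadjusted p under 0.05 in this comparison, Syt9 and Tex46 among them. Tex46 came nearest, with 0.67 ± 0.17 (SE, limma adjusted p = 0.062), and passed without day 2 replicate 2 (adjusted p = 0.035) or day 5 replicate 3 (adjusted p = 0.032). Its 95% interval ran from 0.32 to 1.03. The interval of Serpina1a ran from -0.39 to 0.98 and that of Myf6 from -0.19 to 1.05, so that a doubling of Myf6 lies within its interval. The day 5 and untreated samples did not overlap in 2 genes, Syt9 and Tex46, against 6.63% of all tested features with day 5 samples on top.

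Against day 1, the day 5 samples were higher in all 10 genes by limma, with 9.67% of all tested features called higher. The changes ran from 1.11 ± 0.24 in Lce1e (SE, adjusted p = 0.0058) to 1.83 ± 0.30 in Syt9 (SE, adjusted p = 0.0019), with a median of 1.42 against -0.05 over all tested features. Tex46 had the lowest adjusted p, 7.97e-04, for a change of 1.22 ± 0.17, and Alas2 rose by 2.14 ± 0.43 (SE, adjusted p = 0.0040). Every day 5 sample lay above every day 1 sample in the 10 genes, which 14.5% of all tested features did. These calls held for each gene in 25 of 25 alternative settings and omissions. The comparison shares its day 5 samples with the choice of the genes, so the 10 calls and their stability add no independent support.

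**Figure D2:**
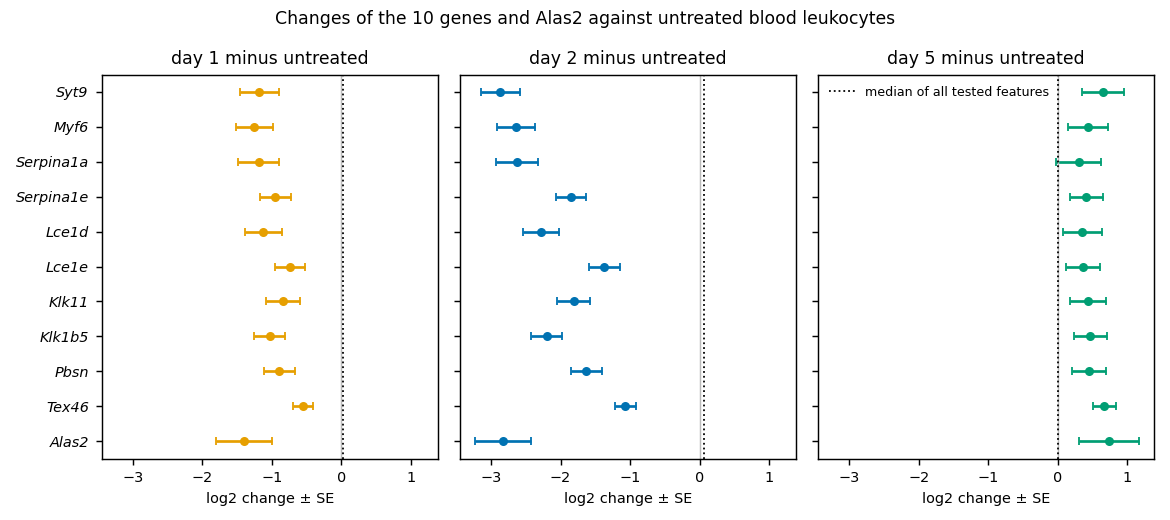
Log2 change against untreated for each gene and Alas2, as points with the standard error of the fit, at day 1 (left), day 2 (middle) and day 5 (right). The dotted line is the median over all tested features (0.03, 0.06 and 0.00). All 10 genes lie left of it at day 1 and day 2 and right of it at day 5, and the day 2 values are those that chose the genes.

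Within a group, the samples rose and fell together across the genes. Untreated replicates 3 and 4 lay above their group mean in all 10 genes and replicate 1 below it in all 10. At day 1, replicate 3 lay above in all 10, by 0.58 log2 units on average, and replicates 1 and 2 lay below in all 10, by 0.37 and 0.38. Day 2 replicate 1 lay above in 9 of 10, by 0.43 on average, with Tex46 the exception. At day 5, replicate 1 lay above in all 10 and replicate 3 below in all 10. Over the 45 pairs of genes, the correlation of these deviations from group means had a median Pearson r of 0.81, from 0.21 for Serpina1a and Tex46 to 0.96 for Serpina1a and Lce1d, as a description over 15 samples that share arrays. The difference between technical replicates gave a median r of 0.09 over the same pairs, from -0.48 for Syt9 and Myf6 to 0.58 for Serpina1a and Lce1d. The technical SD of the genes was 0.05 to 0.15 log2 units, against 0.22 (Tex46) to 0.48 (Serpina1a) between samples of a group. Over all tested features the median was 0.15 technical and 0.22 between samples.

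**Figure D3:**
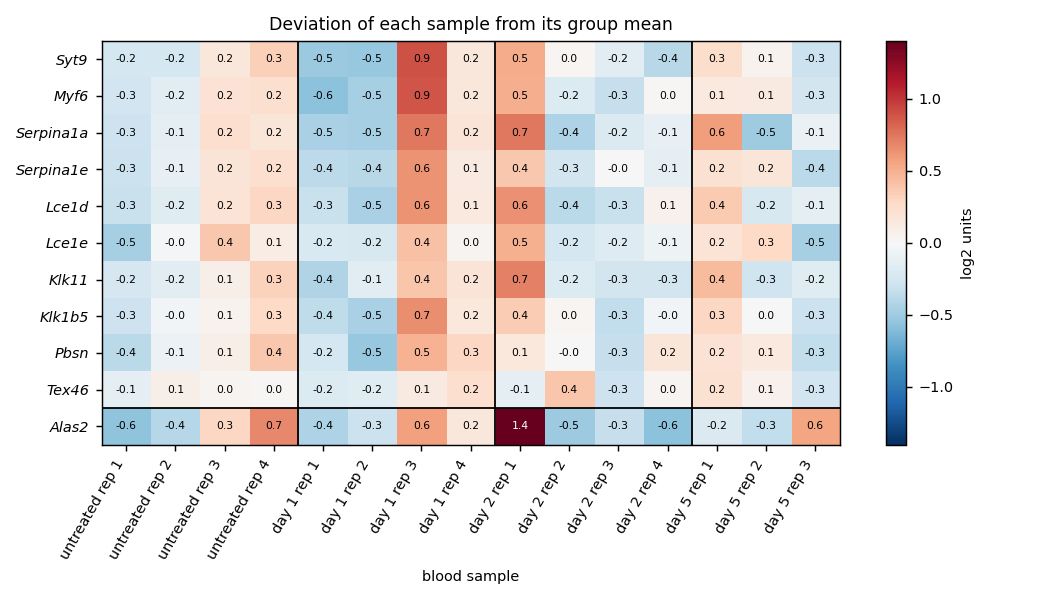
Deviation of each sample from its group mean in log2 units, for the 10 genes and Alas2 (rows) over the 15 samples (columns, groups divided by lines). Red is above the group mean and blue below; the numbers are the deviations. Day 1 replicate 3 is above the mean in all 10 genes, and Alas2 departs from them in day 5 replicates 1 and 3.

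Deviations from group means were set against those of Alas2 in 10 relations, by a two-sided permutation test within groups (100000 resamples). These deviations do not enter the thresholds of the choice, but the relations were chosen with results known. The 10 genes also correlate with each other (median r of 0.81), so the 10 relations are not independent of each other. With Pearson r, 7 of 10 relations were positive with an unadjusted permutation p under 0.05. Of the 4919 tested features with values in all samples, Alas2 left out and the 10 genes included, 4.27% were. These were Klk11 (r = 0.79), Lce1d (0.76), Serpina1a (0.74), Syt9 (0.67), Myf6 (0.65), Serpina1e (0.60) and Klk1b5 (0.57). Their raw permutation p lay between 0.0066 (Lce1d) and 0.029 (Klk1b5), and Spearman's rho between 0.56 (Klk1b5) and 0.76 (Klk11), with raw permutation p of 0.0026 to 0.034. With Benjamini-Hochberg adjustment over all 4919 features, 0 of the 10 genes and 0 features passed the permutation test (441 had an unadjusted p under 0.05 in either direction), and the adjusted p of the 7 genes lay between 0.35 and 0.48. The median r was 0.62 over the 10 genes and 0.02 over the 4919 features. In the set of 105, 95 features had values in all samples and 35 of them were positive with an unadjusted p under 0.05. Lce1e (r = 0.55, raw permutation p = 0.066), Pbsn (r = 0.42, raw permutation p = 0.11) and Tex46 (r = -0.14, raw permutation p = 0.70) were not among the 7. Their rho values were 0.56, 0.42 and -0.11 (raw permutation p = 0.049, 0.12 and 0.74).

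The relation to Alas2 rests on few samples. Untreated replicate 4 and day 2 replicate 1 had the Alas2 deviations farthest from the median deviation of Alas2. Without these samples, r was 0.33 (Pbsn) to 0.65 (Serpina1a) in 9 genes and -0.02 in Tex46. Without day 1 replicate 3 and day 2 replicate 1, the samples with the fewest values, r lay between -0.07 and 0.50, and after quantile normalization of the columns the lowest r was -0.38, in Tex46. At day 5 Alas2 and the 10 genes ordered the samples differently: replicate 3 lay 0.55 above the group mean in Alas2 and below it in all 10 genes. Taking Alas2 from one technical replicate and the genes from the other gave a median r of 0.61 or 0.59.

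The pattern was not limited to the 10 genes. Among 3552 genes with values in all samples, the 10 most like the mean pattern of the genes over the 15 samples were Car4, Fut1, Tuba3a, Fxyd6, Daw1, Oaz3, Stimate, Zswim2, Polr3c and Mdh1b, with Pearson r from 0.997 down to 0.989, and all of them belong to the same set of 105 features. Set against the mean of the others in the same way, the 10 genes had r between 0.920 (Tex46) and 0.997 (Klk1b5), and Alas2 had 0.957 with the mean of the 10. These values include the group differences that chose the genes, which fix a high r, and carry no test. Car4, a carbonic anhydrase anchored to the cell surface, changed by -0.83 at day 1, -1.88 at day 2 and 0.49 at day 5 against untreated.

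Of the other erythroid genes measured, 1 was called lower at day 2 beside Alas2. Of 25 genes of the erythroid and heme list on the array, 17 were tested. At day 2 against untreated 2 were lower, Alas2 and Bnip3l, with none higher, against 7.84% of all tested features called lower and 4.83% higher. Alas2 is in the set of 105 by this change, so its call adds no independent support. Bnip3l, which clears mitochondria from maturing red cells, had group means of 0.86 (untreated), 0.81 (day 1), 0.26 (day 2) and 1.38 (day 5), with a day 2 change of -0.60 ± 0.13 (SE, limma adjusted p = 0.0051). From day 2 to day 5, 3 genes of the list were called higher, Alas2 and Bnip3l among them, and 1 lower, Rhag. Rhag had group means of -0.61 (untreated), -0.50 (day 1), -0.25 (day 2) and -1.10 (day 5). Its change from day 2 to day 5 was -0.84 ± 0.18 (SE, limma adjusted p = 0.0024). Hba-a1, an alpha globin gene, changed by -0.32 ± 0.13 at day 2 (SE, adjusted p = 0.12) and Hba-a1 means stayed between -1.17 and -0.85 over the 4 groups. The median over the list was -0.14 at day 2, and Alas2 is its only member in the set of 105. The median of the list in single samples ran from -1.16 to -0.14 in untreated samples, -0.53 to -0.46 at day 1, -0.66 to -0.35 at day 2 and -0.49 to -0.34 at day 5. Slc4a1 and Epb42, which encode red cell membrane proteins, had no value in any sample. In bulk samples, fewer cells of a type and less RNA per cell cannot be told apart, and the part of red cells in the changes of the 10 genes was not tested.

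Of the relatives of the 10 genes, a minority passed the test. At day 2 against untreated, where 7.84% of tested features were called lower and 4.83% higher, 2 of the 8 tested late cornified envelope genes outside the 10 were lower by limma, Lce1a1 (-1.0 ± 0.14 SE, adjusted p = 2.00e-04) and Lce1a2 (-0.84 ± 0.16 SE, adjusted p = 0.0024). Lce1a1 was lower at day 1 too (-0.63, adjusted p = 0.022), while the median of the 8 was -0.11 at day 2. Of 14 tested serpins 2 were lower, Serping1, the C1 inhibitor (-1.16, adjusted p = 5.01e-04), and Serpinb9b (-1.02, adjusted p = 0.0031), and 2 were higher, Serpinb9g (0.69, adjusted p = 0.0082) and Serpinb9c (0.39, adjusted p = 0.027). Serping1 is the only one of them in the set of 105, and Serpinb6a was the serpin called at day 1, 1.73 higher (adjusted p = 0.021). Of 4 tested synaptotagmins Syt8 was lower (-0.42, adjusted p = 0.021).

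Against the same shares of 7.84% lower and 4.83% higher, none of the 3 tested kallikreins, 11 Tex genes or 3 myogenic factors passed at day 2. The largest changes among them were -0.35 in Klk1b27 (adjusted p = 0.12), 0.42 in Tex11 (adjusted p = 0.066) and 0.16 in Myog (adjusted p = 0.37). Myf5, the neighbour of Myf6 on chromosome 10 and a muscle factor like it, changed by -0.08 (adjusted p = 0.82). The nearest tested genes on either side, with the 10 genes themselves left out, were 16 distinct ones by RefSeq order. Their day 2 changes ran from -0.84 (Lce1a2) to 0.40 with a median of 0.05, and 0 of them are in the set of 105. Lce1d and Lce1e, which lie side by side, were thus passed over as neighbours of each other.

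Among markers of the tissues where the 10 genes are best known, 1 gene passed at day 2. Over all tested features, 7.84% were called lower and 4.83% higher in this comparison with untreated, and the lists were not tested against these shares. At day 2, 0 of 6 tested liver genes, 0 of 9 skeletal muscle genes, 0 of 8 salivary gland and prostate genes, 0 of 3 testis genes and 0 of 6 neuron genes were called in either direction, and 1 of 6 epidermal genes was lower, Krt1, a keratin of the outer epidermis (-0.41 ± 0.13 SE, adjusted p = 0.049). List medians at day 2 were 0.19 for liver, 0.14 for muscle, -0.03 for salivary gland and prostate, 0.29 for testis, 0.11 for neuron and 0.08 for epidermis, against 0.06 over all tested features. The largest liver change was that of Hp, haptoglobin (0.54, adjusted p = 0.068), and the largest muscle change that of Mymk, a fusion factor of muscle cells (0.32, adjusted p = 0.090). Scg5, a neuroendocrine secretory protein, had 0.43 (adjusted p = 0.10), and Tubb3, a neuronal tubulin, was higher at day 1 (0.57, adjusted p = 0.043). Most list genes on the array had too few values to be tested: 6 of 21 liver genes and 3 of 21 testis genes were tested, and 4 and 7 had no value in any sample.

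Leukocyte markers moved in both directions over the same days. Of 7 tested, 3 were higher at day 2, Csf3r and S100a9 of neutrophils (1.56, adjusted p = 1.74e-04, and 1.71, adjusted p = 0.0064) and Cd4 (0.53, adjusted p = 0.042). Lyz2 of myeloid cells (-0.83, adjusted p = 0.023), Nkg7 (-0.69, adjusted p = 0.0028) and Klrd1 (-0.57, adjusted p = 0.049) of cytotoxic cells were lower. Over all tested features, 4.83% were called higher and 7.84% lower. The part of this shift in cell markers in the changes of the 10 genes was not tested.

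**Figure D4:**
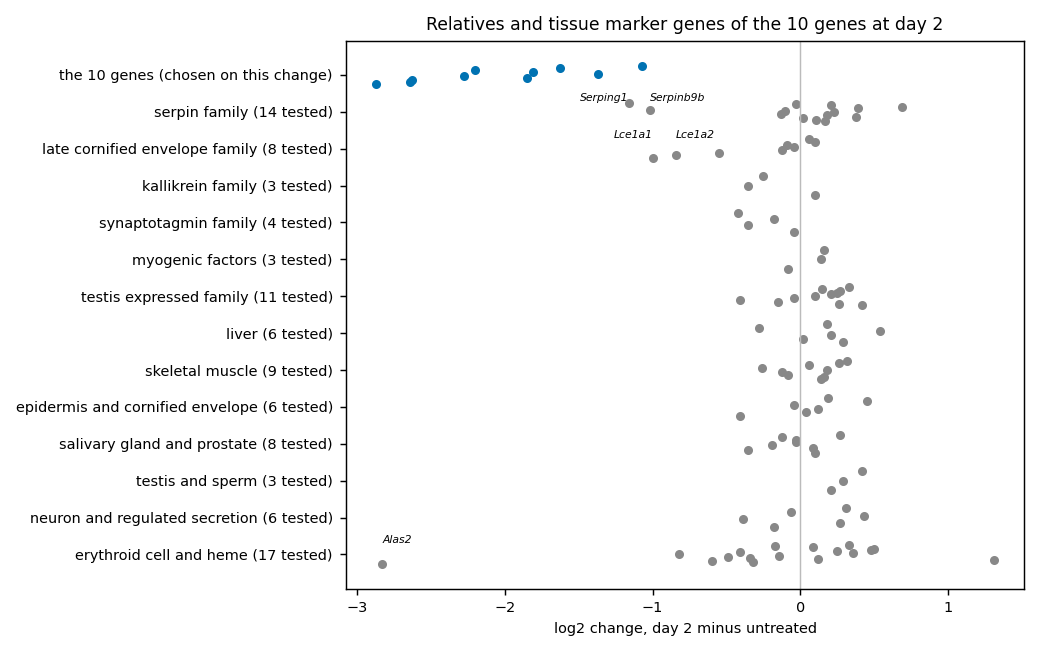
Log2 change at day 2 against untreated for the 10 genes (top row, blue, chosen on this change) and, in grey, the tested genes of their families and of tissue marker lists. The 10 genes lie between -2.87 and -1.07; of the genes in grey, Alas2 and Serping1 lie in that range.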

How the data were processed

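Peripheral blood leukocytes of 15 samples were measured on 2-colour arrays, 2 columns each. The authors deposited 1 log ratio per probe and column, with Cy5 (blood) over Cy3 (marrow pool) per the labels. The sources used here do not give the scanner, background correction, normalization or log base. The deposited values ran from -4.70 to 5.76 and were taken as log2; base e is not excluded, and every log2 value would then be a natural logarithm. Arrays limit the precision by their number.

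Technical replicates (r of 0.829 to 0.957) were averaged and counted as 1 sample, and probes of 1 symbol were averaged. Platform symbols were used for 10032 probes with 1 gene; 170 probes with several and 3241 with none are not named. Features with values in at least 3 of 4 samples (2 of 3 at day 5) were tested with limma 3.58.1 in R 4.3.3 (lmFit, eBayes, 1 mean per group over 15 samples, Benjamini-Hochberg over 6515 features, called at an adjusted p under 0.05). The procedure was tested on simulated data. A change is the first-named group minus the second.

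The genes, lists, families and tests were chosen with earlier results of these data known. Named genes are the 10, Alas2, the 10 genes most like them, and list or family genes that passed at day 1 or day 2 against untreated, or else the one with the largest day 2 change. Hba-a1, Rhag, Tspo2, Myf5, genes beside the threshold and genes with few values were added after their values were seen. p-values cover the spread between the samples. Alternatives were quantile normalization, 1 technical replicate, other filters, a robust trended prior, array weights, 2-group fits, a replicate block, single probes and omissions of samples.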

Additional observations from a re-analysis of the deposited data

Results flagged for a closer look

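In day 2 replicate 1, Klk11 had a log2 ratio of -0.99, and the gap to the nearest other day 2 sample was 0.923 of the range of the group. In the same sample Alas2 had a log2 ratio of -1.33, with a gap of 0.871 of the range. Both gaps exceed Dixon's critical value for groups of 4. The 10 genes and Alas2 give 33 groups of 4 samples, 2 of which met this criterion, and chance alone flags about 1 in 20 groups. Day 2 replicate 1 is also the sample with the fewest values, 5751 probes; the part of missing values in these gaps was not tested.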

How the results depend on the processing

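No value that passed a test changed sign under any alternative. The median change of the 10 genes lay between -1.21 and -0.85 at day 1, -2.18 and -1.94 at day 2 and 0.31 and 0.60 at day 5 against untreated; at day 5 Serpina1a came to 0.00 without day 5 replicate 1. The count called lower at day 1 was 7 of 10. It was 2 with the replicate block and 0 to 9 when 1 sample was left out. Of the 6515 features, the block called 42 lower at day 1, against 151 in the main fit. The count called lower at day 2 against day 1 was 5. It was 2 with the replicate block, 0 with only the 2 groups compared in the fit, and 0 to 6 when 1 sample was left out. Of the 6515 features, 14 were lower there with the block and 0 with only the 2 groups, against 40 in the main fit. The count was 3 without day 1 replicate 3 and day 2 replicate 1, an omission chosen after seeing the data. At day 5 against untreated 1 gene, Tex46, was called with complete features only, and 0 to 1 when 1 sample was left out. The count of 10 at day 5 against day 1 did not change. Of 10 relations with Alas2, 7 passed when adjusted over the 10 relations, which were chosen with results known, and 0 passed when adjusted over 4919 features, an adjustment added after seeing the data. With the adjustment over 10, 4 passed in technical replicate 2 alone, 0 after quantile normalization and 0 without day 1 replicate 3 and day 2 replicate 1. Where fewer samples or genes entered, the alternative itself removes information; otherwise the cause was not tested. The sample titles do not say whether replicate numbers pair the samples. Over features with values in all samples, deviations of same-numbered samples correlated with r between -0.346 and 0.217. A link limited to some features was not tested, and the block is given here only.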
